A study of Mus musculus with 12 samples.

Results

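Cell cycle and DNA replication genes were followed through liver RNA-seq of the STAM mouse model of non-alcoholic steatohepatitis (NASH). The set holds 41 named genes out of 47729 genes in the count files, and each symbol matched a single gene. They were chosen by symbol for their known roles, with earlier results of these data known. By phase, 5 members control G1 and entry into S phase, 7 license replication origins, 5 make nucleotides or act in DNA synthesis, 9 are kinases, cyclins and regulators of G2 and mitosis, 4 belong to the spindle checkpoint and the anaphase-promoting complex, and 11 serve chromosomes, the spindle and cytokinesis. Of the 41 members, 38 had enough counts to be tested, and Pbk, Bub1 and Cenpe did not.

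In a dividing cell, D-type and E-type cyclins with their kinases free the E2F transcription factors, which switch on the genes for origin licensing and DNA synthesis. The MCM2-7 ring is loaded on origins with the help of Cdt1 and becomes the replicative helicase. Later, Foxm1 and the MuvB complexes switch on the G2 and mitosis genes, whose proteins (Cdk1 with cyclins A and B, Plk1, the Aurora kinases) drive chromosome segregation. Most hepatocytes of an adult liver rest outside the cycle, and many are polyploid, a state that the repressors E2f7 and E2f8 promote.

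The groups were healthy mice (Naive_vehicle), STAM mice given vehicle (STAM_vehicle) and STAM mice given I-BET151 (STAM_treated), with 4 mice each and 1 liver library per mouse. All were male C57BL/6 mice collected at 9 weeks of age, by the labels and the study's methods. STAM mice had received streptozotocin, a toxin of the insulin-producing beta cells, on day 2 of life to induce a diabetic state. They had a high-fat diet from week 4, while healthy mice had a normal diet and no streptozotocin. I-BET151 (GSK1210151A), an inhibitor of the BET bromodomain proteins, was given by mouth once daily at 10 mg/kg from week 6 to week 9, in a suspension whose carrier, by the methods, was not the methylcellulose of the vehicle mice. The difference in carrier and the effect of I-BET151 cannot be told apart here. The libraries held 34711229 to 53365596 counts per mouse, of which the 41 members together took 3968 to 8399 counts, or 0.0106% to 0.0242%. At this depth many mitotic members rested on fewer than 100 counts per library, which sets the precision of their values. Levels are given in CPM, the counts of a gene scaled to the TMM-adjusted size of its library, and comparisons as log2 fold changes ± SE with p-values adjusted over all 16823 tested genes, from edgeR's quasi-likelihood test on 12 mice.

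I-BET151 mouse 3 stood apart from the other 11 libraries over all genes. Its 10 most abundant genes took 7.95% of counts, against 13.5% to 18.0% in the others, its TMM factor was 1.61 against 0.77 to 1.11, and its summed hepatocyte markers were at 18870 CPM, below every other mouse. Its nuclear RNAs (Malat1, Neat1, Meg3, Kcnq1ot1 and Airn) summed to 4798 CPM, against 824.0 to 2121 CPM in the others. The methods exclude an unnamed I-BET151 library for low gene counts, and which mouse this was cannot be told here. I-BET151 mouse 3 had the lowest total of its group, 34711229 counts, close to the 35171038 of I-BET151 mouse 2. Mouse 3 held counts in 24304 genes, more than any other mouse. I-BET151 mouse 2 held counts in 22293 genes, the fewest of its group. All 4 I-BET151 libraries were kept here, and calls and values that mouse 3 decides are also given without it.

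The DNA just before the start of these genes often carries 2 kinds of element that bind cell cycle factors, the CHR and the E2F site, as well as the CCAAT box bound by NF-Y. RefSeq (GRCm38.p6) gave a promoter for 32 of the 41 members, and the 250 bases before each start were searched for them on both strands. A CHR match was TTTGAA or TTCGAA. The CCAAT box was searched by its name. An E2F match was any of 3 words, of which the first was TTCCCGC. The next word was TTCGCGC. The last word was TTGGCGC. An E2F match to TTGGCGC that follows an A also holds a CCAAT box on the other strand. Among all 32851 promoters, 17.1% held a CHR match, 33.8% a CCAAT box and 6.69% an E2F match. For the 18 members of G2 and mitosis these shares were 44.4%, 88.9% and 16.7%, and for the 14 members of G1, licensing and S phase they were 21.4%, 64.3% and 35.7%. A CHR match together with a CCAAT box was present in 11 of 32 members and in 6.02% of all promoters. These shares describe letters in a window and were not tested, and 7 of the 32 windows lay by more than 30 bases inside the gene as GENCODE draws it. The windows of Cdc20, E2f8, Mcm2 and Aurka are shown because these genes passed a threshold in at least 1 comparison and lie at the start of their gene. Capitals mark the matches.

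Cdc20, chr4:118437344-118437593, minus strand: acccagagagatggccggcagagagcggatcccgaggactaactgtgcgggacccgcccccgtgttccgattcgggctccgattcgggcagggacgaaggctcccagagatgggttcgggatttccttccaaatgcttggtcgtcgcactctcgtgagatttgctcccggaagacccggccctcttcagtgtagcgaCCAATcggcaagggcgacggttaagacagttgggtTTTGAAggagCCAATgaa
E2f8, chr7:48881597-48881846, minus strand: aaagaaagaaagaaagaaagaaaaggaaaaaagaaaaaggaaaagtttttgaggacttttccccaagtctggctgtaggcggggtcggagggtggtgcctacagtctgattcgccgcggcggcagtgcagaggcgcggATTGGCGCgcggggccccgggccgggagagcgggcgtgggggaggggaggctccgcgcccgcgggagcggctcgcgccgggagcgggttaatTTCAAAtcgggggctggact
Mcm2, chr6:88898781-88899030, minus strand: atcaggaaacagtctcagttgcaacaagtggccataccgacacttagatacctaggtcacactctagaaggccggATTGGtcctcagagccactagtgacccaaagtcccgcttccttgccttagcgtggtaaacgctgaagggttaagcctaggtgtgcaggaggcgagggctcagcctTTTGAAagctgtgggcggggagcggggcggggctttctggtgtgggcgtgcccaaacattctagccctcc
Aurka, chr2:172370571-172370820, minus strand: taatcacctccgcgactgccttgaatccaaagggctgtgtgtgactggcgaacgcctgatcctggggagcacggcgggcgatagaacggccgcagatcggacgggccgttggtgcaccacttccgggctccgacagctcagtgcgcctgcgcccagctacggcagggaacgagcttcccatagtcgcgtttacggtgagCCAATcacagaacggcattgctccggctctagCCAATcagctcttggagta

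Cdc20, E2f8 and Mcm2 each carry a CHR match and at least 1 CCAAT box, although their called changes differed. Cdc20 was called upwards and E2f8 downwards in vehicle against healthy livers, and Mcm2 upwards in I-BET151 against healthy livers. In E2f8 the E2F match and the CCAAT box share letters. Aurka carries CCAAT boxes and no match of the other kinds, and its RefSeq start lies just outside the gene as GENCODE draws it.

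Per kilobase of exon, the most abundant member in healthy liver was Pcna, the sliding clamp of the replication fork, at 10.3 CPM per kb. Tk1 followed at 5.28, Mcm7 at 3.30, Rrm2 at 2.91 and E2f8 at 2.09 CPM per kb. The lowest of the G1, licensing and S phase members was Mcm5 at 0.267 CPM per kb. Members of G2 and mitosis ran from 1.11 CPM per kb for Aurka to 0.0132 for Bub1, with Mki67 at 0.104. These levels overlapped between the groups of genes, and their order was not tested.

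Between vehicle and healthy livers, 2 of the 38 tested members rose and 1 fell at an adjusted p of at most 0.05, where 5.72% of all tested genes rose and 1.38% fell. Cdc20 and Tpx2, both genes of mitosis, rose, and E2f8 fell. Between I-BET151 and vehicle livers no member passed an adjusted p of 0.1 with edgeR, where 0.0951% of all genes were higher and 0.256% lower, although 14 of the 38 had an unadjusted p under 0.05, as 8.68% of all genes did. DESeq2 called 7 members in that comparison, 3 higher (Cdt1, E2f8 and Mcm7) and 4 lower (Cdc20, Cdk1, Rrm2 and Top2a). Its share of calls over all genes was not counted, so these 7 have no background beside them. Between I-BET151 and healthy livers, E2f1 and Mcm2 rose and Aurka and Pcna fell, beside 9.88% of all genes higher and 5.25% lower at an adjusted p of at most 0.05. The comparisons share mice (each group enters 2 of the 3), so their values are set side by side and are not independent of each other.

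**Figure D1:**
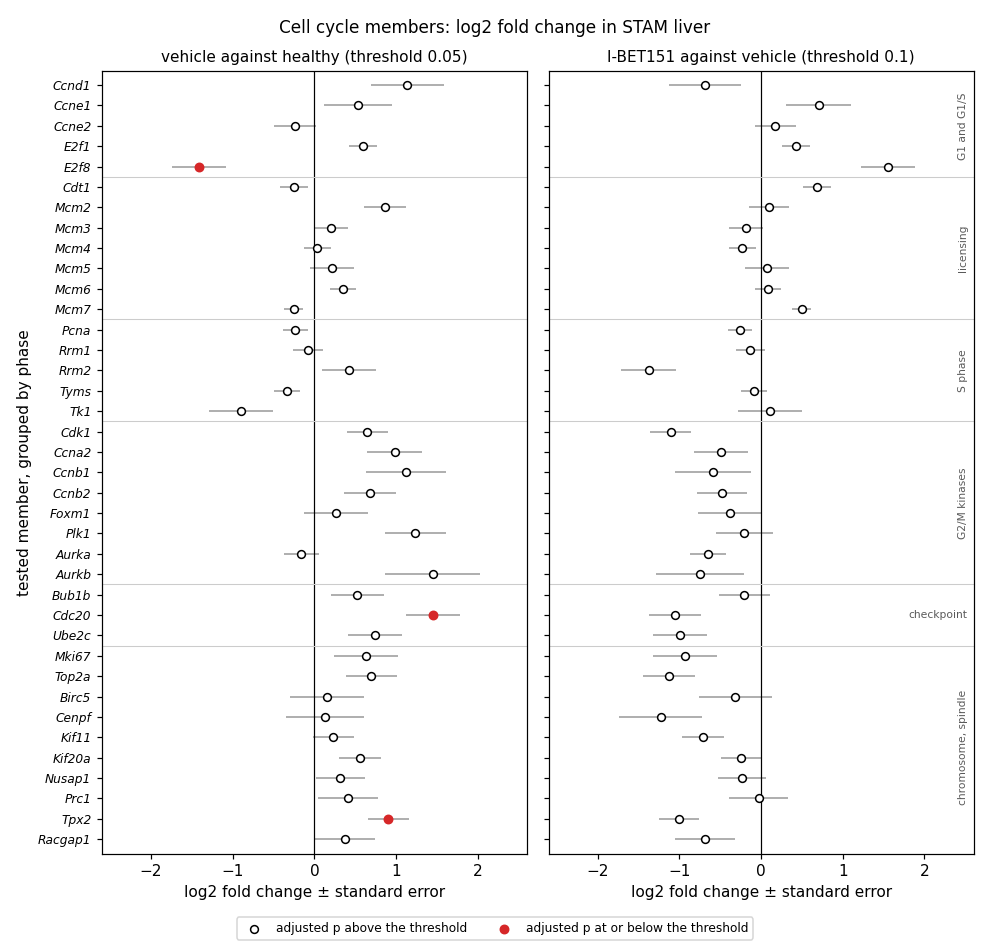
Log2 fold change (x axis, bars are ± standard error) of the 38 tested members (y axis, grouped by phase) in vehicle against healthy livers and in I-BET151 against vehicle livers, with filled red points for an adjusted p at or below the threshold. The 21 members of G2 and mitosis lie to the right of 0 on the left, all but Aurka, and to the left of 0 on the right, while E2f8 runs the opposite way, at -1.41 and 1.55.

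Among the G1 and G1/S members, E2f8 had the largest log2 fold changes in both comparisons with the vehicle group. E2f8 (ENSMUSG00000046179, chromosome 7 from 48866429 to 48881596), an atypical E2F that represses E2F targets, was at 10.9, 18.8, 9.68 and 6.09 CPM in the healthy mice, at 2.67, 4.53, 5.24 and 4.65 in the vehicle mice, and at 17.03, 9.39, 15.2 and 8.36 in the I-BET151 mice. All 4 vehicle mice lay below every healthy and every I-BET151 mouse. E2f8 fell in vehicle against healthy livers by 1.41 ± 0.33 on the log2 scale (adjusted p = 0.0218). The call was lost without healthy mouse 2 (adjusted p = 0.0751), vehicle mouse 1 (0.0548) or vehicle mouse 4 (0.0519). In I-BET151 against vehicle livers its log2 fold change was 1.55 ± 0.33, a 2.93-fold difference, with an adjusted p of 0.110, and it passed in 4 of 12 fits with a mouse omitted, among them the fit without I-BET151 mouse 3 (1.45, adjusted p = 0.0824). DESeq2 gave E2f8 an adjusted p of 0.00119 there. I-BET151 and healthy livers differed by 0.14 ± 0.32 (adjusted p = 0.793). Of the 5443 exon bases of E2f8, 610 are shared with Gm2788, a non-coding transcript on the opposite strand, which itself fell in vehicle against healthy livers (log2 fold change -1.27, adjusted p = 0.0444) and had 1.02 (adjusted p = 0.387) in I-BET151 against vehicle. Whether the counting used strand is not given in the sources used here, so reads of this pair may not be told apart over those bases. E2f7, the partner of E2f8, was at 0.625 ± 0.172, 0.547 ± 0.249 and 0.569 ± 0.164 CPM (SD, n = 4) in healthy, vehicle and I-BET151 livers, with no call in any comparison.

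E2f1 (ENSMUSG00000027490, chromosome 2 from 154559407 to 154569892), the activator E2F of the S phase genes, was at 1.55, 1.80, 1.66 and 1.47 CPM in healthy mice, 2.14, 2.30, 2.75 and 2.59 in vehicle mice, and 2.97, 3.76, 3.62 and 2.80 in I-BET151 mice. The 3 groups followed each other without overlap. E2f1 rose in I-BET151 against healthy livers (1.02 ± 0.18, 2.03-fold, adjusted p = 0.00280), and the call held in 12 of 12 fits with a mouse omitted. For vehicle against healthy livers it was 0.59 ± 0.18 (adjusted p = 0.0584, and 0.0222 without I-BET151 mouse 3), and for I-BET151 against vehicle 0.43 ± 0.17 (adjusted p = 0.489).

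Ccnd1, cyclin D1, was at 8.32, 9.90, 7.73 and 5.84 CPM in healthy mice, 6.58, 9.67, 37.9 and 15.7 in vehicle mice, and 16.6, 7.92, 11.9 and 6.84 in I-BET151 mice. The groups overlapped, and vehicle mouse 3 held the highest value of all 12. The log2 fold change of vehicle against healthy livers was 1.14 ± 0.45 (adjusted p = 0.147), and 0.42 without vehicle mouse 3. For I-BET151 against vehicle it was -0.69 ± 0.44 (adjusted p = 0.725), and 0.023 without that mouse. Of its exon bases, 23.4% are shared with LTO1 on the opposite strand.

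The E cyclins are partners of Cdk2 at the start of S phase, and neither passed a threshold in edgeR with all 12 mice. Ccne1 was at 0.298, 0.768, 0.930 and 0.891 CPM in healthy mice, 0.529, 1.05, 1.41 and 1.15 in vehicle mice, and 2.23, 1.90, 0.752 and 1.91 in I-BET151 mice. In I-BET151 mice 1, 2 and 4 it was above every other mouse, and mouse 3 was within the healthy range. The log2 fold change of I-BET151 against healthy livers was 1.24 ± 0.42 (adjusted p = 0.0586), and 1.49 ± 0.36 (adjusted p = 0.0133) without I-BET151 mouse 3. DESeq2 (adjusted p = 0.0270) called Ccne1 there with all 12 mice. It was also called by limma-voom with sample weights (adjusted p = 0.00529), where the weight of I-BET151 mouse 3 was 0.0749. Ccne2 was at 1.28, 1.80, 1.72 and 1.12 CPM in healthy mice, 1.71, 1.03, 1.14 and 1.15 in vehicle mice, and 1.22, 1.33, 1.92 and 1.17 in I-BET151 mice. These ranges overlapped throughout, with log2 fold changes between -0.24 and 0.17 over the 3 comparisons.

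**Figure D2:**
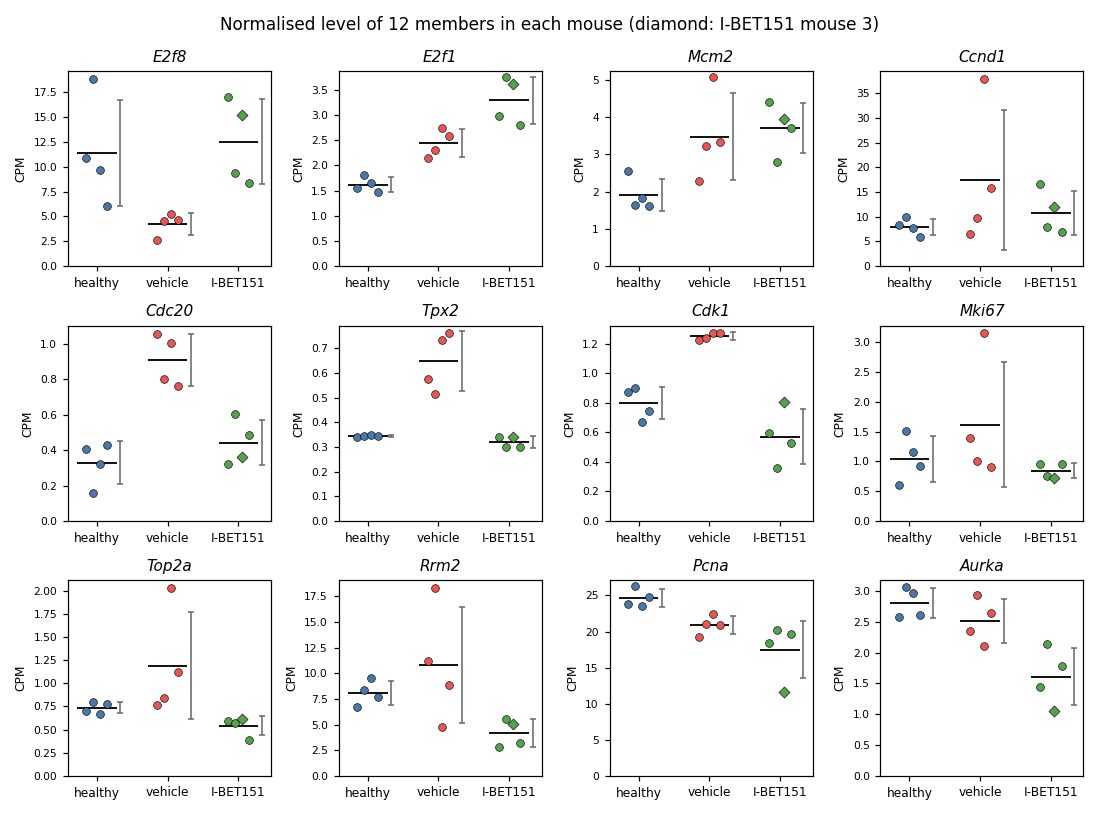
CPM (y axis, from 0) of 12 members in each healthy, vehicle and I-BET151 mouse, with horizontal lines for the mean of 4 mice, error bars for the SD and diamonds for I-BET151 mouse 3. E2f8 is lowest in the 4 vehicle mice, at 2.67 to 5.24 CPM, and Cdk1 is highest in them, at 1.23 to 1.28 CPM.

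Of the 7 licensing members, Mcm2 alone passed a threshold in edgeR with all 12 mice. Mcm2 (ENSMUSG00000002870, chromosome 6 from 88883474 to 88898780), a subunit of the helicase ring, was at 2.55, 1.64, 1.83 and 1.61 CPM in healthy mice, 2.28, 3.24, 5.07 and 3.33 in vehicle mice, and 4.39, 2.80, 3.96 and 3.72 in I-BET151 mice. Every I-BET151 mouse was above every healthy mouse, and vehicle mouse 1 lay within the healthy range. Mcm2 rose in I-BET151 against healthy livers (0.96 ± 0.25, 1.95-fold, adjusted p = 0.0227). The call was lost without healthy mouse 2, 3 or 4 or without I-BET151 mouse 1, with adjusted p values between 0.0560 for the last and 0.0733 for the first. Vehicle against healthy livers gave 0.86 ± 0.25 (adjusted p = 0.0555, and 0.0296 without I-BET151 mouse 3), and I-BET151 against vehicle 0.10 ± 0.25 (adjusted p = 0.958).

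None of the other subunits of the ring passed in edgeR with all 12 mice, and limma-voom with sample weights called Mcm6 in vehicle against healthy livers (adjusted p = 0.0327). Mcm5 was at 0.957, 1.14, 1.13 and 1.04 CPM in healthy mice, 0.673, 1.12, 1.76 and 1.38 in vehicle mice, and 1.53, 1.05, 1.42 and 1.17 in I-BET151 mice, with overlap between all groups (vehicle against healthy 0.22 ± 0.27, adjusted p = 0.689). Over Mcm3, Mcm4, Mcm6 and Mcm7, the log2 fold changes of vehicle against healthy livers lay between -0.25 for Mcm7 and 0.35 for Mcm6. Mcm7 was at 14.6 ± 1.35, 12.3 ± 0.955 and 17.3 ± 1.61 CPM (SD, n = 4) in healthy, vehicle and I-BET151 livers. Each vehicle mouse was below each mouse of the other groups in Mcm7, and the log2 fold change of I-BET151 against vehicle was 0.49 ± 0.12 (adjusted p = 0.145, 0.0581 without I-BET151 mouse 3, and 0.0119 with DESeq2). The Mcm7 gene also hosts Mir25 and Mir93 on its own strand. Cdt1, the loading factor, was at 2.73 ± 0.380, 2.29 ± 0.161 and 3.68 ± 0.542 CPM. All 4 I-BET151 mice were above all others, with a log2 fold change of 0.69 ± 0.17 against vehicle (adjusted p = 0.169, 0.0543 without I-BET151 mouse 3, and 0.0277 with DESeq2) and 0.43 ± 0.17 against healthy livers (adjusted p = 0.0999).

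The 5 members of DNA synthesis were all lower in I-BET151 than in healthy livers by their point estimates, and Pcna passed. Pcna (ENSMUSG00000027342, chromosome 2 from 132249162 to 132253314) was at 23.8, 26.4, 23.5 and 24.8 CPM in healthy mice, 19.3, 21.1, 22.4 and 20.9 in vehicle mice, and 18.4, 20.2, 11.7 and 19.7 in I-BET151 mice. Every STAM mouse was below every healthy mouse. Pcna fell in I-BET151 against healthy livers by 0.49 ± 0.15 on the log2 scale (adjusted p = 0.0421), and by 0.35 ± 0.08 (adjusted p = 0.0118) without I-BET151 mouse 3. It passed in 3 of 12 fits with a mouse omitted, those without an I-BET151 mouse other than mouse 1. Vehicle against healthy livers gave -0.23 ± 0.15 (adjusted p = 0.391, and 0.0317 without I-BET151 mouse 3).

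Rrm2, the S phase subunit of ribonucleotide reductase, was at 6.72, 8.37, 9.50 and 7.65 CPM in healthy mice, 11.2, 18.3, 4.80 and 8.84 in vehicle mice, and 2.79, 5.54, 5.07 and 3.24 in I-BET151 mice. The I-BET151 mice lay below every healthy mouse, and vehicle mouse 3 lay among them. I-BET151 against vehicle livers gave -1.38 ± 0.34 (adjusted p = 0.158, and 0.0879 without I-BET151 mouse 3), and I-BET151 against healthy livers -0.96 ± 0.34 (adjusted p = 0.0690, and 0.0237 with DESeq2). Its larger partner Rrm1 was at 8.04 ± 0.626, 7.62 ± 0.917 and 6.97 ± 1.74 CPM (SD, n = 4), with no call. Tk1, thymidine kinase, averaged 27.4 ± 3.56 CPM in the healthy group, 14.7 ± 5.90 with vehicle and 15.9 ± 11.6 with I-BET151. In Tk1 the I-BET151 mice 1, 2 and 4 were at 8.45, 12.9 and 9.14 CPM and mouse 3 was at 32.9 CPM, so that I-BET151 against healthy livers was -0.79 ± 0.39 (adjusted p = 0.182) with mouse 3 and -1.45 ± 0.28 (adjusted p = 0.00437) without it. Tyms, thymidylate synthase, was at 4.14 ± 0.351, 3.27 ± 0.455 and 3.08 ± 0.304 CPM, with no call in edgeR and an adjusted p of 0.0424 in DESeq2 for I-BET151 against healthy livers (-0.46 ± 0.17).

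The members of G2 and mitosis mostly shared a direction. In vehicle against healthy livers 20 of the 21 tested had a log2 fold change above 0, with a median of 0.63, against 0.0089 over all tested genes, of which 50.9% were above 0. In I-BET151 against vehicle livers 21 of 21 were below 0, with a median of -0.65 against 0.024 over all genes. Of all tested genes, 53.9% were above 0 there. These genes are known to be expressed together in cycling cells, so the 21 are not independent of each other. They were also chosen with earlier results of these data known, so their counts by direction are descriptive. The 17 members of G1, licensing and S phase had medians of 0.036 and 0.084 in the same comparisons, with 9 and 10 of 17 above 0. In these whole-liver libraries, fewer cycling cells and less RNA per cycling cell cannot be told apart.

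Cdk1, the kinase of mitotic entry, was at 0.872, 0.900, 0.668 and 0.747 CPM in healthy mice, 1.23, 1.24, 1.28 and 1.27 in vehicle mice, and 0.594, 0.361, 0.806 and 0.528 in I-BET151 mice, on 12 to 66 counts per library. The 4 vehicle mice were above all others. The log2 fold change was 0.65 ± 0.25 for vehicle against healthy livers (adjusted p = 0.140, and 0.0387 without I-BET151 mouse 3) and -1.11 ± 0.25 for I-BET151 against vehicle (adjusted p = 0.135, and 0.0243 without that mouse). Ccna2, cyclin A2, was at 0.638, 0.636, 0.843 and 0.747 CPM in healthy mice, 1.201, 1.39, 1.74 and 1.32 in vehicle mice, and 0.702, 0.482, 1.74 and 1.06 in I-BET151 mice. Vehicle mice lay above healthy mice without overlap, and I-BET151 mouse 3 reached the highest vehicle value. Vehicle against healthy livers gave 0.98 ± 0.34 (adjusted p = 0.0976, and 0.0157 without I-BET151 mouse 3), and I-BET151 against vehicle -0.49 ± 0.33 (adjusted p = 0.741), or -0.90 ± 0.26 (adjusted p = 0.121) without that mouse.

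Ccnb1, cyclin B1, was at 0.170, 0.238, 0.203 and 0.144 CPM in healthy mice, 0.336, 0.190, 0.677 and 0.445 in vehicle mice, and 0.234, 0.271, 0.484 and 0.0919 in I-BET151 mice, on 4 to 35 counts. The groups overlapped (vehicle against healthy 1.12 ± 0.49, adjusted p = 0.198). I-BET151 against vehicle was -0.59 in Ccnb1, -1.05 without I-BET151 mouse 3 and -0.24 without vehicle mouse 3. Foxm1, a transcription factor of the G2 and mitosis genes, was at 0.894, 0.397, 0.378 and 0.517 CPM in healthy mice, 0.336, 0.762, 0.657 and 0.891 in vehicle mice, and 0.486, 0.422, 0.806 and 0.299 in I-BET151 mice. Its groups overlapped, at 0.26 ± 0.40 on the log2 scale for vehicle against healthy (adjusted p = 0.741) and -0.38 ± 0.39 for I-BET151 against vehicle (adjusted p = 0.854, and a value of -0.71 without I-BET151 mouse 3). Plk1, Polo-like kinase 1, was at 0.306 ± 0.0135, 0.724 ± 0.214 and 0.619 ± 0.340 CPM (SD, n = 4), with every vehicle mouse above every healthy mouse. Plk1 had a log2 fold change of 1.24 ± 0.37 in vehicle against healthy livers (adjusted p = 0.0615, and 0.00727 without I-BET151 mouse 3). Ccnb2 also separated vehicle from healthy mice (0.68 ± 0.32, adjusted p = 0.224), and Aurkb, the kinase of the chromosomal passenger complex, had 1.45 ± 0.58 (adjusted p = 0.158) on 2 to 36 counts.

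Aurka (ENSMUSG00000027496, chromosome 2 from 172356190 to 172370535), the kinase of the spindle poles, was the member of this group below 0 in vehicle against healthy livers. It was at 2.57, 3.07, 2.96 and 2.62 CPM in healthy mice, 2.36, 2.93, 2.11 and 2.65 in vehicle mice, and 1.44, 2.14, 1.06 and 1.79 in I-BET151 mice. Every I-BET151 mouse was below every healthy mouse, and I-BET151 mouse 2 overlapped the vehicle range. Aurka fell in I-BET151 against healthy livers by 0.81 ± 0.22 on the log2 scale (adjusted p = 0.0254). The call was lost without healthy mouse 2, 3 or 4 or I-BET151 mouse 1, with adjusted p values from 0.0588 without healthy mouse 4 to 0.0783 without healthy mouse 2. It was -0.16 ± 0.22 in vehicle against healthy livers (adjusted p = 0.711) and -0.65 ± 0.22 in I-BET151 against vehicle (adjusted p = 0.381).

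Cdc20 (ENSMUSG00000006398, chromosome 4 from 118432901 to 118437352), the activator of the anaphase-promoting complex, had the larger of the called increases in vehicle against healthy livers. It was at 0.404, 0.159, 0.320 and 0.431 CPM in healthy mice, 1.06, 0.7996, 1.01 and 0.764 in vehicle mice, and 0.324, 0.602, 0.358 and 0.482 in I-BET151 mice, on 6 to 52 counts per library. All 4 vehicle mice were above all 8 others. Cdc20 rose in vehicle against healthy livers (1.45 ± 0.33, 2.74-fold, adjusted p = 0.0176), a call lost without healthy mouse 2 (adjusted p = 0.0582), healthy mouse 3 (0.0627) or vehicle mouse 3 (0.0592). I-BET151 against vehicle gave -1.05 ± 0.32 (adjusted p = 0.302). Elovl1, which shares 53 exon bases with Cdc20 on the opposite strand, also rose in vehicle against healthy livers (0.47, adjusted p = 0.0308) and had 0.046 in I-BET151 against vehicle. Ube2c, the ubiquitin-conjugating enzyme of the same complex, had 0.74 ± 0.33 and -0.99 ± 0.33 in these comparisons (adjusted p = 0.211 and 0.381), and the checkpoint kinase Bub1b had 0.53 ± 0.32 and -0.20 ± 0.32 (adjusted p = 0.366 and 0.918), the latter at -0.51 without I-BET151 mouse 3. Bub1 held 0 to 9 counts per library and was not tested.

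Tpx2 (ENSMUSG00000027469, chromosome 2 from 152847964 to 152895321), which builds the spindle and activates Aurora A, was at 0.340, 0.344, 0.349 and 0.345 CPM in healthy mice, 0.577, 0.514, 0.735 and 0.764 in vehicle mice, and 0.342, 0.301, 0.340 and 0.299 in I-BET151 mice, on 10 to 38 counts. The vehicle mice were above all 8 others. Tpx2 rose in vehicle against healthy livers (0.91 ± 0.25, 1.87-fold, adjusted p = 0.0445), and it passed in 2 of 12 fits with a mouse omitted, those without I-BET151 mouse 2 or 3. DESeq2 gave it an adjusted p of 0.0702. I-BET151 livers held 0.499 times the vehicle level (adjusted p = 0.167, and 0.0824 without I-BET151 mouse 3).

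Mki67, the proliferation marker Ki-67, was at 0.596, 1.51, 1.16 and 0.920 CPM in healthy mice, 1.39, 1.01, 3.15 and 0.912 in vehicle mice, and 0.954, 0.753, 0.716 and 0.965 in I-BET151 mice. The ranges of vehicle and healthy mice overlapped apart from vehicle mouse 3. The log2 fold change was 0.63 ± 0.39 for vehicle against healthy livers (adjusted p = 0.369), and 0.080 without vehicle mouse 3. For I-BET151 against vehicle it was -0.93 ± 0.39 (adjusted p = 0.520), and -0.38 without vehicle mouse 3. Top2a, the topoisomerase that untangles sister DNA, was at 0.702, 0.794, 0.668 and 0.776 CPM in healthy mice, 0.769, 0.838, 2.03 and 1.12 in vehicle mice, and 0.594, 0.572, 0.609 and 0.391 in I-BET151 mice. All I-BET151 mice were below all others, with -1.13 ± 0.32 against vehicle (adjusted p = 0.249) and -0.44 ± 0.33 against healthy livers (adjusted p = 0.371). Without vehicle mouse 3, Top2a was at -0.75 in I-BET151 against vehicle. In vehicle against healthy livers it ran from 0.31, without that mouse, to 0.85 over the fits with a mouse omitted.

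Of the other members that serve the spindle and chromosomes, none passed a threshold in edgeR. With limma-voom and sample weights, Kif20a passed in vehicle against healthy livers (adjusted p = 0.0290) and Kif11 in I-BET151 against vehicle (adjusted p = 0.0768). In vehicle against healthy livers their log2 fold changes ran from 0.13 for the kinetochore gene Cenpf and 0.15 for Birc5 (survivin) to 0.56 for the kinesin Kif20a. In I-BET151 against vehicle they ran from -1.23 for Cenpf, on 1 to 22 counts, and -0.71 for Kif11, the motor that separates the spindle poles, to -0.031 for Prc1, which bundles the midzone and was at -0.40 without I-BET151 mouse 3. Kif20a shares 29.3% of its exon bases with Cdc23 on the opposite strand. Cenpe held 2 to 22 counts and Pbk 1 to 9 per library, and neither was tested.

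**Figure D3:**
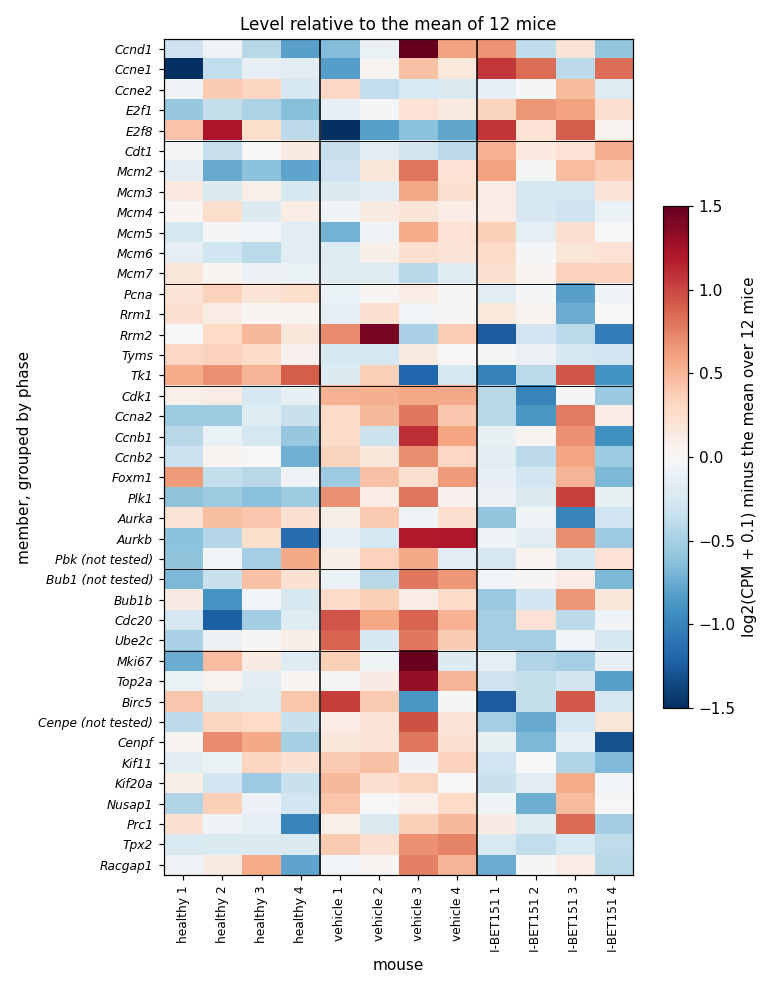
Level of each of the 41 members (rows, grouped by phase) in each mouse (columns), as log2(CPM + 0.1) minus the mean of the 12 mice, on a colour scale cut at -1.5 and 1.5. In the lower rows, of G2 and mitosis, the vehicle columns are mostly red and I-BET151 mouse 3 differs from the other I-BET151 columns, while E2f8 is blue in the vehicle mice.

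Single mice carried part of these patterns. Vehicle mouse 3 was the highest of its group in 20 of the 38 tested members, against 29.3% of all genes. I-BET151 mouse 3 was the highest in 17 of 38, a share near the 42.2% it had over all genes. The mean log2 CPM of the 21 members of G2 and mitosis was -0.79 to -0.52 in healthy mice, -0.27 to 0.17 in vehicle mice and -0.90 to -0.20 in I-BET151 mice. I-BET151 mouse 3 supplied the -0.20, above vehicle mouse 2, and the other I-BET151 mice were at -0.80, -0.80 and -0.90. Without I-BET151 mouse 3 the median log2 fold change of these members was -0.88 against vehicle, and of all 38 members 3 were lower (Cdk1, Rrm2 and Tpx2) and 3 higher (Cdt1, E2f8 and Mcm7) at an adjusted p of at most 0.1, beside 1.47% of all genes lower and 0.909% higher in that fit. That fit also raised the calls of vehicle against healthy livers to 7 higher (Ccna2, Cdc20, Cdk1, E2f1, Mcm2, Plk1 and Tpx2) and 3 lower (E2f8, Pcna and Tk1), beside 12% and 10.4% of all genes, so that calls rose in number over all genes.

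Without any fit, 7 members were higher and 4 lower in all vehicle mice than in all healthy mice, beside 14.2% and 12.2% of all tested genes. Of the 7, 6 belong to G2 and mitosis (Cdk1, Ccna2, Ccnb2, Plk1, Cdc20 and Tpx2), and the 4 are E2f8, Mcm7, Pcna and Tk1. In I-BET151 against vehicle mice 4 members did not overlap upwards (E2f1, E2f8, Cdt1 and Mcm7) and 5 downwards (Cdk1, Cdc20, Top2a, Cenpf and Tpx2), beside 2.41% and 2.63% of all genes. In I-BET151 against healthy mice 5 were higher and 5 lower without overlap, beside 10.9% and 8.86%. The sequencing lane named in the files was shared by an I-BET151 and a vehicle mouse in 3 lanes, where the median difference over the 38 members was -0.31, -0.40 and -0.38, with 9, 16 and 14 members above 0. A single lane held a vehicle and a healthy mouse, with a median of 0.39 and 27 of 38 members above 0. With the lane as a covariate no member passed in any comparison. The 7 results called without it had adjusted p values of 0.117 to 0.672. With 6 lanes over 12 mice that fit leaves few degrees of freedom. Its share of calls over all genes was not counted, so the lack of calls has no background beside it. The log2 fold changes with the lane were -1.41 for E2f8, 1.41 for Cdc20 and 0.98 for Tpx2 in vehicle against healthy livers, and 1.14 for E2f1, 0.68 for Mcm2, -0.47 for Aurka and -0.35 for Pcna in I-BET151 against healthy livers.

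Markers of T cells ran in the direction of the mitotic members in both comparisons with the vehicle group. The medians of erythroid, B and plasma cell and cholangiocyte markers did so too, with smaller differences in I-BET151 against vehicle. Those of macrophages and endothelial cells had the same signs, at -0.031 and -0.068 in I-BET151 against vehicle. Medians of hepatocyte, stellate and early granulocyte markers did not follow this course. Of the 6 T cell markers (Cd3d, Cd3e, Cd3g, Cd2, Lck and Cd8a), 6 had log2 fold changes above 0 in vehicle against healthy livers (median 0.90), where Cd8a passed (2.31 ± 0.41, adjusted p = 0.00482), and 6 were below 0 in I-BET151 against vehicle (median -1.01), where 0 passed and 4 had an unadjusted p under 0.05. Their summed level ranged over 1.84 to 4.96 CPM in the healthy, 4.52 to 5.96 in the vehicle and 2.27 to 3.04 CPM in the I-BET151 mice, and none was at 0 in any mouse. Of the 6 macrophage markers, 4 passed upwards in vehicle against healthy livers, beside 5.72% of all genes. In I-BET151 against vehicle 0 passed, with 3 above 0 and 3 below. Their sums were 146.0 to 218.5, 252.2 to 466.5 and 209.2 to 437.2 CPM in healthy, vehicle and I-BET151 mice. The 6 B and plasma cell markers had 0 calls, with sums of 2.30 to 5.02, 2.99 to 5.88 and 2.38 to 4.41 CPM. Of these markers, 4 were above 0 in vehicle against healthy livers (median 0.30) and 4 below 0 in I-BET151 against vehicle (median -0.19). Of 6 hepatocyte markers, 6 were below 0 in vehicle against healthy livers, with sums of 99830 to 118200 CPM in the healthy and 49440 to 70400 in the vehicle mice, and 0 passed. The 5 nuclear RNAs were above 0 there, 5 of 5 with a median of 0.75, at 824.0 to 1237 CPM in the healthy and 1341 to 2121 in the vehicle mice. Of 6 erythroid genes, 5 were above 0 in vehicle against healthy livers (median 1.18) and 6 below 0 in I-BET151 against vehicle (median -0.43), with the highest sum, 1649 CPM, in vehicle mouse 3. The 4 markers of early granulocytes, of which 2 were tested, summed to 0.026 to 0.291 CPM in the healthy and 0.264 to 2.77 in the vehicle mice. They summed to 8.07 and 10.5 CPM in I-BET151 mice 1 and 4, and to 0.542 and 0.394 CPM in I-BET151 mice 2 and 3. In vehicle against healthy livers the medians were 0.0031 for 6 endothelial, 0.39 for 6 stellate and myofibroblast and 0.18 for 5 cholangiocyte markers. In I-BET151 against vehicle these were -0.068, 0.16 and -0.36. The part of these cells and RNAs in the results was not tested.

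**Figure D4:**
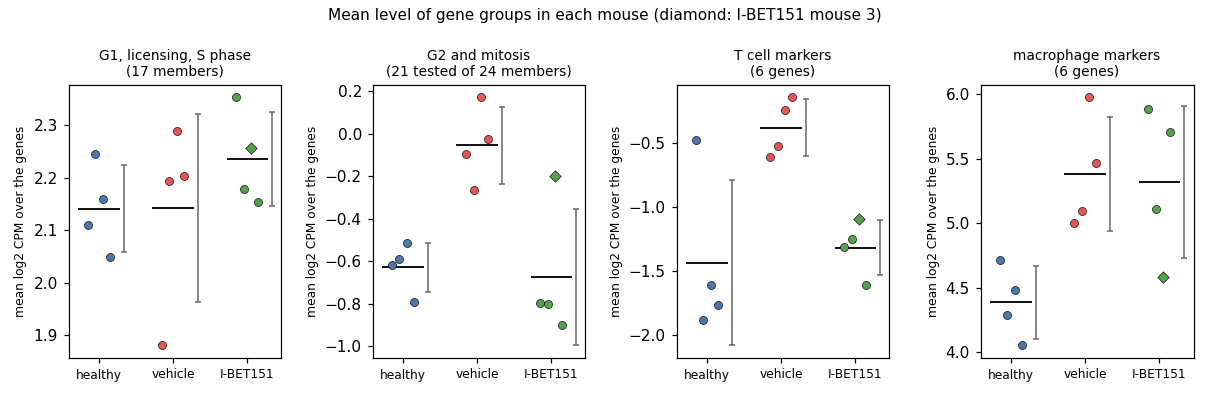
Mean log2 CPM (y axes, each with its own range) of the 17 members of G1, licensing and S phase, of the 21 tested members of G2 and mitosis, of 6 T cell markers and of 6 macrophage markers in each mouse, with lines for the mean of 4 mice, bars for the SD and diamonds for I-BET151 mouse 3. The 4 vehicle mice are highest for G2 and mitosis except against I-BET151 mouse 3, and T cell markers are lower in the I-BET151 than in the vehicle mice, while macrophage markers overlap between these groups.

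Further genes of the cycle were read from lists drawn by function. Of 63 other mitosis genes, 48 were tested. In vehicle against healthy livers 4 rose and 1 fell, beside 5.72% and 1.38% of all genes. The median of the 48 was 0.37, with 36 above 0, as were 50.9% of all genes. The 4 largest differences were those of Hmmr (1.69 ± 0.47, adjusted p = 0.0451), which binds microtubules, Cenpm (1.68 ± 0.38, adjusted p = 0.0172) of the centromere, Iqgap3 (1.40 ± 0.39, adjusted p = 0.0468) and the kinesin Kif2c (1.37 ± 0.33, adjusted p = 0.0243). With a mouse omitted, Hmmr and Iqgap3 passed in 4 of 12 fits, Kif2c in 6 and Cenpm in 9. In I-BET151 against vehicle none of the 48 passed, with a median of -0.24, 8 at an unadjusted p under 0.05 (8.68% of all genes) and 32 below 0. In I-BET151 against healthy livers 3 rose and 2 fell, beside 9.88% and 5.25% of all genes. Among them were Cenpm (1.46 ± 0.38), Kif2c (1.42 ± 0.33) and Incenp (0.84 ± 0.22) upwards and the kinetochore gene Spc24 downwards (-1.04 ± 0.24, adjusted p = 0.0137).

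Of 48 other replication genes, 44 were tested. In vehicle against healthy livers 1 rose and 2 fell, beside 5.72% and 1.38% of all genes. The gene that rose was Uhrf1, which guides maintenance methylation (1.48 ± 0.42, adjusted p = 0.0488, passing in 3 of 12 fits with a mouse omitted). Mcm10, a factor of helicase activation, averaged 56.5 ± 5.87 CPM in the healthy and 26.5 ± 7.81 in the vehicle group and fell (-1.09 ± 0.26, adjusted p = 0.0214) and was at 22.6 ± 8.48 CPM after I-BET151 (-1.32 ± 0.26 against healthy, adjusted p = 0.00567). In healthy livers the counts of Mcm10 were above those of Pcna. Exons shared with other genes were looked up for the 41 members only, so whether reads of another transcript enter the Mcm10 counts was not tested. Chaf1a (0.89 ± 0.28, adjusted p = 0.0476) and Dnmt1 (0.56 ± 0.14, adjusted p = 0.0180) rose in I-BET151 against healthy livers, passing in 3 and 10 of 12 fits with a mouse omitted, and Mcm10 passed in 8 for vehicle and 12 for I-BET151 against healthy. In I-BET151 against healthy livers 2 of the 44 rose and 3 fell, beside 9.88% and 5.25% of all genes. In I-BET151 against vehicle none of the 44 passed, with 6 at an unadjusted p under 0.05, as were 8.68% of all genes.

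Among 16 other G1 cyclins, kinases and E2F-related genes, Myc, a driver of cell growth, averaged 7.10 ± 1.77 CPM in the healthy and 16.0 ± 2.16 in the vehicle group and rose (1.17 ± 0.20, adjusted p = 0.00410) and was at 20.1 ± 5.08 CPM in I-BET151 livers (2.82-fold against healthy, adjusted p = 0.000680). I-BET151 and vehicle livers differed by 0.33 ± 0.20 in Myc (adjusted p = 0.694). Of the 16, 1 rose in vehicle and 4 in I-BET151 against healthy livers, beside 5.72% and 9.88% of all genes. Mybl2 (1.40 ± 0.38, adjusted p = 0.0266), Cdc25a (0.56 ± 0.16, adjusted p = 0.0346) and Tfdp1 (0.39 ± 0.10, adjusted p = 0.0163) also rose in I-BET151 against healthy livers. With a mouse omitted they passed in 9, 5 and 10 of 12 fits, and Mybl2 was at 0.85 without I-BET151 mouse 3. None of the 16 passed in edgeR for I-BET151 against vehicle, with 3 at an unadjusted p under 0.05, as were 8.68% of all genes. Of 17 CDK inhibitors and pocket proteins 16 were tested, of which 0 passed in vehicle against healthy livers (5 at an unadjusted p under 0.05, as were 22.3% of all genes). In I-BET151 against vehicle 0 passed, with 3 at an unadjusted p under 0.05. Against healthy livers 1 fell with I-BET151, beside 5.25% of all genes. This was Rbl2, the pocket protein p130, which fell by 0.47 ± 0.14 on the log2 scale (adjusted p = 0.0383, passing in 4 of 12 fits with a mouse omitted). Cdkn1a, the p21 inhibitor, was at 57.3 ± 38.0, 75.4 ± 5.99 and 61.1 ± 39.6 CPM (SD, n = 4), and Cdkn1b, p27, at 31.9 ± 2.81, 28.3 ± 1.26 and 29.3 ± 5.11 CPM, with no call for either.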

How the data were processed

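Liver RNA of 12 mice was sequenced from stranded TruSeq mRNA libraries. The authors aligned the reads with STAR 2.5.1b to mm10 and deposited 1 file of raw counts per mouse. The methods and the submitters' processing notes name HTSeq, whereas the file names carry the word for another counter, and the annotation release and strand setting are not given in the sources used here. Symbols came from GENCODE M21, and promoters from RefSeq on GRCm38.p6.

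Groups and replicate numbers were taken from the sample labels. Testing used edgeR 4.0.16 under R 4.3.3, with filterByExpr (minimum count 10), TMM scaling and a quasi-likelihood fit of all 12 mice, with Benjamini-Hochberg adjustment over 16823 genes. An adjusted p of at most 0.05 counted as a call in both comparisons with healthy mice, and at most 0.1 between the STAM groups. The SE is the log2 fold change over the square root of F. Mean log2 CPM used a prior count of 2. The labels number the mice within groups and do not say that they were caged apart, so p-values measure the spread between these mice. Alternatives used DESeq2 1.42.0, limma-voom (limma 3.58.1) with sample weights, other filters and scaling, the 2 groups alone, the replicate number as a block, the lane as a covariate, and each mouse left out. The code was tested on simulated counts.

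The members and lists were chosen with earlier results of these data known. Values in every mouse were given for members past a threshold and for 13 fixed members (Mki67, Top2a, Cdk1, Ccnb1, Ccna2, Ccnd1, Ccne1, Ccne2, Mcm2, Mcm5, Pcna, Rrm2 and Foxm1). From each further list up to 4 genes of largest change past a threshold per comparison were named, with Cdkn1a, Cdkn1b and Myc, and other members or partner genes were named after their values were seen. A gene that this rule names is not reported here.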

Additional observations from a re-analysis of the deposited data

Results flagged for a closer look

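Among the named members, 54 groups of 4 mice were searched for a mouse far from the others of its group by Dixon's criterion, which chance meets in about 1 of 20 groups, and 3 were found. Top2a was at 0.391 CPM in I-BET151 mouse 4, against 0.572 to 0.609 CPM in the other I-BET151 mice. Ccne1 was at 0.752 CPM in I-BET151 mouse 3, against 1.90 to 2.23 CPM in the others. Pcna was at 11.7 CPM in the same mouse, against 18.4 to 20.2 CPM in the others. I-BET151 mouse 3 is the library with the low share of its 10 most abundant genes.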

How the results depend on the processing

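For vehicle against healthy livers the members called were 2 higher and 1 lower. DESeq2 gave 5 higher, limma-voom with sample weights 12 higher and 3 lower, the fit of the 2 groups alone 7 higher and 3 lower, and no filter or a filter of 10 counts in every mouse 1 higher. With a mouse left out, 0 to 7 were higher and 0 to 3 lower. For I-BET151 against vehicle, with 0 and 0, DESeq2 gave 3 higher and 4 lower, limma-voom 4 higher and 8 lower, and no filter 1 higher and 1 lower. With a mouse left out, 0 to 3 were higher and 0 to 3 lower. For I-BET151 against healthy, with 2 and 2, limma-voom gave 6 higher and 4 lower, DESeq2 3 higher and 4 lower, and the 2 groups alone 2 higher and 1 lower. With a mouse left out, 1 to 3 were higher and 0 to 3 lower. The lane as a covariate gave 0 in all 3 comparisons. RLE scaling left these counts as they were. Shares of calls over all genes were not counted for DESeq2, limma-voom, RLE scaling, the 2 groups alone or the other filters. They were also not counted for the lane as a covariate or the replicate block. Whether the larger or smaller counts in these fits are particular to the members was not tested.

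Same-numbered mice did not deviate together (mean r of -0.070, -0.062 and -0.146 in the comparisons in this order). No pairing by number was seen, although this check cannot exclude one. With the replicate block, 0 members were higher and 0 lower in vehicle against healthy and in I-BET151 against vehicle, and 2 higher and 1 lower in I-BET151 against healthy livers.

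The log2 fold change turned its sign with the lane as a covariate for Foxm1 (-0.37), Aurka (0.25) and Dnmt1 (-0.13) in vehicle against healthy livers, and with limma-voom for Mybl2 (-0.32), Cenpm (0.16) and Kif2c (-0.13) in I-BET151 against vehicle. With a mouse left out it crossed 0 for Mcm5 in vehicle against healthy (-0.0055 to 0.41), and in I-BET151 against vehicle for Ccnd1 (-0.97 to 0.023), Ccne2 (-0.0038 to 0.35), Mcm2 (-0.059 to 0.33), Mcm5 (-0.13 to 0.29), Mybl2 (-0.32 to 0.44), Cenpm (-0.50 to 0.087), Kif2c (-0.086 to 0.17), Incenp (-0.039 to 0.21) and Cdkn1b (-0.046 to 0.14). Of the alternatives for single genes, 1507 kept direction and side of the threshold, 64 newly passed, 177 no longer passed and 18 changed sign. The cause was not tested. Low counts limit the mitotic members.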
